A study of Mus musculus with 6 samples.

Results

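Regions downstream of genes, called DoG regions, collect reads from transcripts that were not ended at the gene's 3′ end and extend into the sequence behind it. The weak ones described here were the rows of the deposited DoG table whose 6 raw counts summed to at least 60 and at most 707. They numbered 832 of 1693 rows (49.1%). Of the others, 838 rows were more abundant, 16 held 1 to 59 counts and 7 held no count. The members were thus chosen by their measured total over both genotypes, which includes the knockout counts and so is not independent of a change between them. The table gives no name, position, length or strand, so regions are called by their row number, and neither host genes nor sequences are given.

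The libraries came from 3T3-L1, a line of mouse embryonic fibroblasts that serves as a model of the preadipocyte. Both groups were undifferentiated and in log-phase growth. They were 3 wild-type (WT) libraries and 3 libraries of the Ube3d knockout, called biological replicates in the titles. Neither a treatment nor a time point is given for either group. The sources used here say neither whether the knockout is 1 clone nor which cultures were kept apart, so p-values measure only the spread between these samples.

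As background, RNA polymerase II normally stops soon after the nascent transcript is cut at its poly(A) site. The cut is made by CPSF73, the endonuclease of the cleavage and polyadenylation complex, and the exonuclease XRN2 then degrades the RNA still attached to the polymerase until transcription ends. When cutting or termination is slow, transcription continues into the sequence behind the gene. UBE3D, a ubiquitin ligase, is known to bind CPSF73, so the DoG table bears on whether readthrough differs when Ube3d is lost.

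Gene counts, which served as library sizes, ran from 23767181 to 29389480 per library. Ube3d, listed under its older symbol Ube2cbp, had 145, 229 and 173 counts in WT and 56, 43 and 53 in the knockout (log2 change −1.85, SE 0.15, edgeR adjusted p = 1.2e-16). All 8 listed fibroblast and preadipocyte markers were present, 1 of them higher and 6 lower in the knockout (against 29.3% and 27.4% of all fitted genes), with a summed level of 8684 to 10156 counts per 1000000 gene counts of the library (CPM). Adipoq, Plin1, Lep and Cidec, markers of fat cells, summed to at most 0.110 CPM, Epcam, Cdh1 and Krt14 of epithelium to at most 0.186 CPM, and Pecam1, Cdh5 and Kdr of endothelium to at most 0.782 CPM. Of 4 leukocyte markers, which summed to 1.75 to 4.71 CPM, Adgre1 and Cd3e had no count, and Ptprc had 2, 0 and 2 counts in WT and 0, 1 and 0 in the knockout, too few to test. Cd68, which macrophages carry, rose from 2.30 ± 0.77 to 3.83 ± 0.77 CPM (SD, n = 3; edgeR adjusted p = 6.1e-04). The ribosomal RNA precursor gene Rn45s took 7.28% to 8.91% of gene counts in WT and 9.68% to 10.2% in the knockout. The members' median log2 change, described below, was 0.90 with Rn45s in the library sizes and 0.93 without it. The part of the Cd68 difference in the results was not tested.

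As a whole, the weak regions had nearly 2 times as many reads in the knockout. Their counts summed to 32285, 46741 and 37780 in WT libraries 1 to 3 and to 70189, 69583 and 72575 in knockout libraries 1 to 3. On the CPM scale this was 1358, 1590.4 and 1406 in WT and 2778, 2557 and 2588 in the knockout. The groups did not overlap, and the lowest knockout library lay well above the highest WT library, which was replicate 2. The means were 1452 ± 122 in WT and 2641 ± 119.6 in the knockout (SD, n = 3), a ratio of 1.82. A two-sided exact permutation test gave p = 0.1, the smallest value that 3 libraries against 3 allow. It was also 0.1 after adjustment over the 6 library-level values compared. With 1 library left out at a time, the ratio ran from 1.76 (without WT replicate 1) to 1.91 (without WT replicate 2). In bulk RNA, more such reads in each cell and more cells with such reads cannot be told apart. Without known host genes, the counts could not be set against host-gene levels, and the part of these levels in the rise was not tested.

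**Figure D1:**
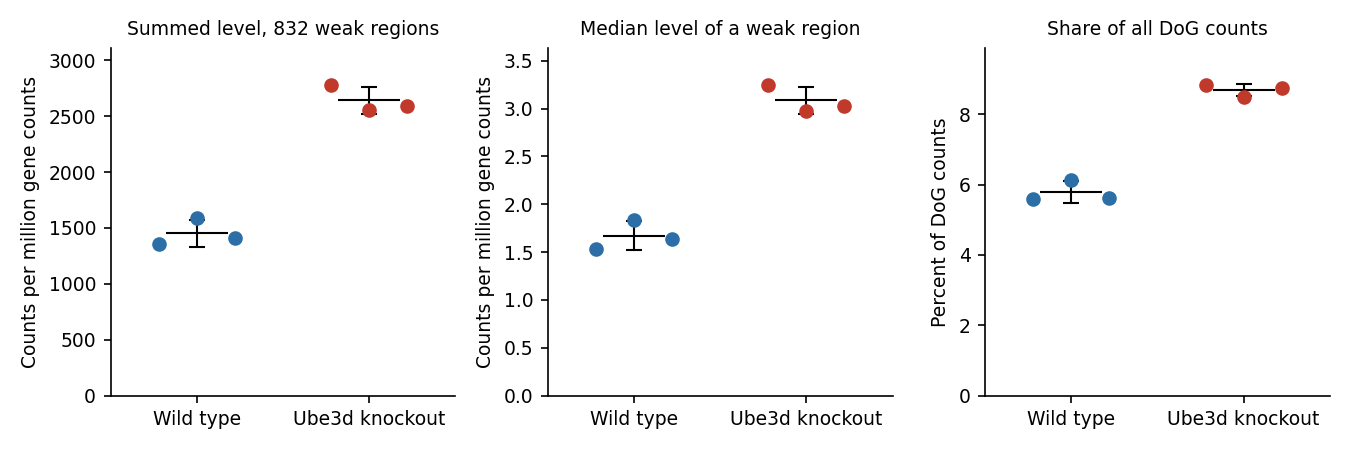
Values of the 832 weak DoG regions in each library, with points for the 3 libraries per genotype, a horizontal dash for the mean and bars for the SD. The summed level and the median level (CPM) and the share of all DoG counts (percent) are higher in every knockout library than in every WT library.

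The individual region was read sparsely. A typical member had a median of 36.5, 54 and 44 counts in the 3 WT libraries and of 82, 81 and 85 in the 3 knockout libraries. On the CPM scale these medians were 1.54, 1.84 and 1.64 in WT and 3.25, 2.98 and 3.03 in the knockout. The middle 50% of members had summed WT counts between 86 and 183 and summed knockout counts between 169.8 and 331. Of the 4992 single values, 2 were 0. At such counts, counting error alone gives a median coefficient of variation of 15.02% in WT and 10.9% in the knockout, and the observed medians between replicates were 17.9% and 12.7%. The spread between replicates was above counting error in both genotypes, and the chi-square per region of within-genotype pairs of libraries was 1.52 to 1.69.

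Each region was tested with edgeR's quasi-likelihood test, in one fit of all 1684 DoG rows with at least 15 counts in total, and called at a Benjamini-Hochberg adjusted p under 0.05. All 832 members entered the fit, since their totals of at least 60 exceed that minimum. Of them, 675 rose in the knockout (81.1%), where 75.7% of all fitted DoG rows did. A fall was called for 14 members (1.68%, against 4.75% of all fitted rows), and 143 were not called. Scaled to the totals of the DoG table itself, which gives change relative to all DoG counts, 537 members were higher and 23 lower. In that setting 1010 of all 1684 fitted DoG rows were higher. The sources used here do not say in which libraries the DoG regions were defined. A definition made on knockout libraries would favour regions with more reads there, and its part in these counts was not tested. The fitted change was above 0 in 796 members (95.7%, against 89.7% of all fitted DoG rows and 84.0% of the abundant ones). Among the 143 uncalled members 121 were above 0, with a median log2 change of 0.29 and a median SE of 0.22.

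The rise of a typical member was 1.87-fold. The median log2 change was 0.90, with quartiles of 0.57 and 1.25 and with 0.07 and 1.90 as its 5th and 95th percentiles. Over all fitted DoG rows the median was 0.78, and over the 838 abundant regions it was 0.61. Over the 14446 genes fitted in the same way it was 0.03. Genes whose counts summed to the same 60 to 707 had a median log2 change of 0.28, with 848 of 2626 higher (32.3%) and 389 lower (14.8%). Sparse counts in the gene table were thus also more often higher than lower in the knockout, to a smaller extent than the weak DoG regions.

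The rise was seen in almost all members. Every knockout library lay above every WT library in 682 members (82.0%, against 75.8% of all fitted DoG rows), and the reverse held in 14 (against 5.05%). The highest of the 6 libraries was a knockout library in 791 members and a WT library in 41. This was not counted over all fitted DoG rows, of which 89.7% had a fitted change above 0. Knockout replicate 1 was the highest in 400 members, replicate 3 in 225 and replicate 2 in 166. Summed over members, the mean level gained 1189 CPM from WT to knockout. The 83 members with the largest gains, about 10%, supplied 24.1% of that net gain. The largest single gain, in region 265, was 0.415% of it. This region had 41, 61 and 46 counts in WT and 174, 193 and 178 in the knockout. No member could hold more than 707 of the members' 329153 counts, so the choice by total itself kept such shares small. Levels were lower in the knockout in 35 members, whose sum fell by 32.6 CPM. Of all 1684 fitted DoG rows, 174 had a fitted change below 0.

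**Figure D2:**
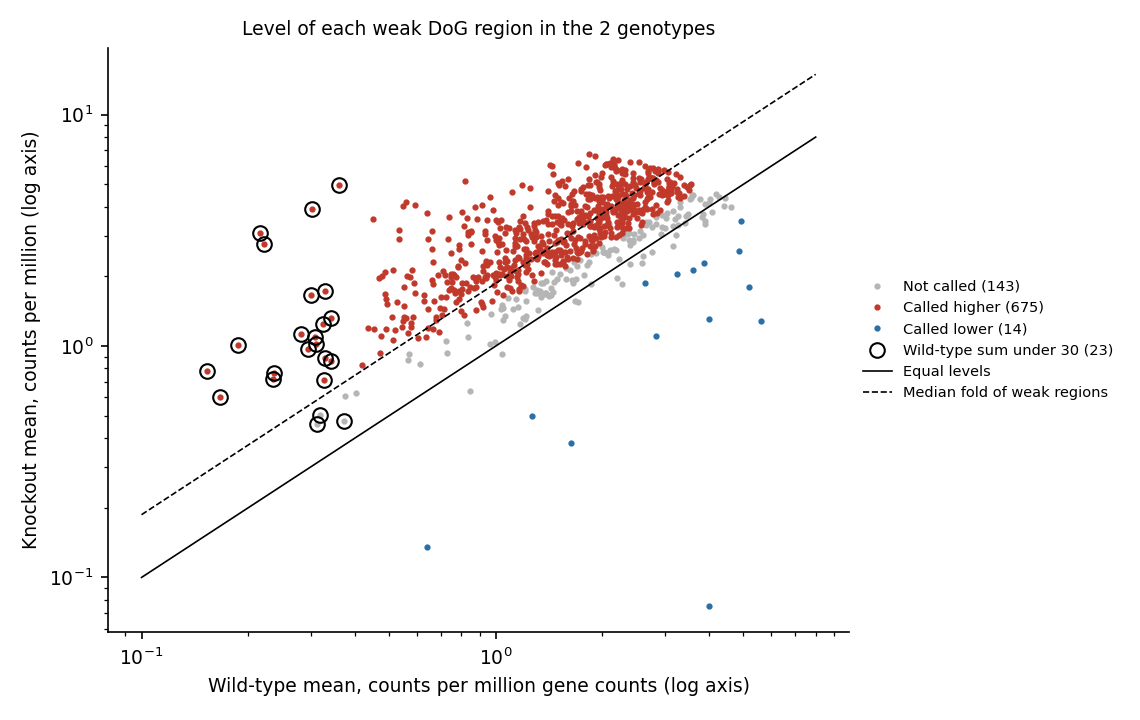
Mean level of each of the 832 weak DoG regions in WT (horizontal) and knockout (vertical), both in CPM on log axes, coloured by edgeR call and ringed where the WT counts summed to under 30. Most points lie above the line of equal levels and along the dashed line of the median 1.87-fold rise; 14 called falls lie below.

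The same was seen between single libraries. Across the 9 pairs of 1 knockout and 1 WT library, the median ratio of members' levels ran from 1.64 (knockout replicate 2 over WT replicate 2) to 2.13 (replicate 1 over replicate 1). The share of members that were higher in the knockout library ran from 90.7% to 96.6% of the 832. All 3 of the lowest median ratios, 1.64, 1.67 and 1.78, were those against WT replicate 2.

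The size of the rise nevertheless differed between members by more than their error. The SD of the log2 change over members was 0.66, and the median SE of a single member was 0.20. After the mean squared SE was subtracted, an SD of 0.62 remained, and 0.58 without region 1605, the deepest fall. An interval of 1.96 SE around a member's own change held the members' median in 499 of 832 (59.98%). It lay wholly above the median in 168 and wholly below in 165. Of the members, 551 (66.2%) were within 0.5 of the median on the log2 scale. In fold classes, 304 members had a log2 change from 0.5 to 1, 244 from 1 to 1.5, 77 from 1.5 to 2 and 32 of at least 2, while 139 had one between 0 and 0.5. A fitted doubling or more was seen in 353 members (42.4%, against 34.8% of all fitted DoG rows), and a fitted 4-fold rise or more in 32 (3.85%, against 3.38% of all fitted DoG rows).

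**Figure D3:**
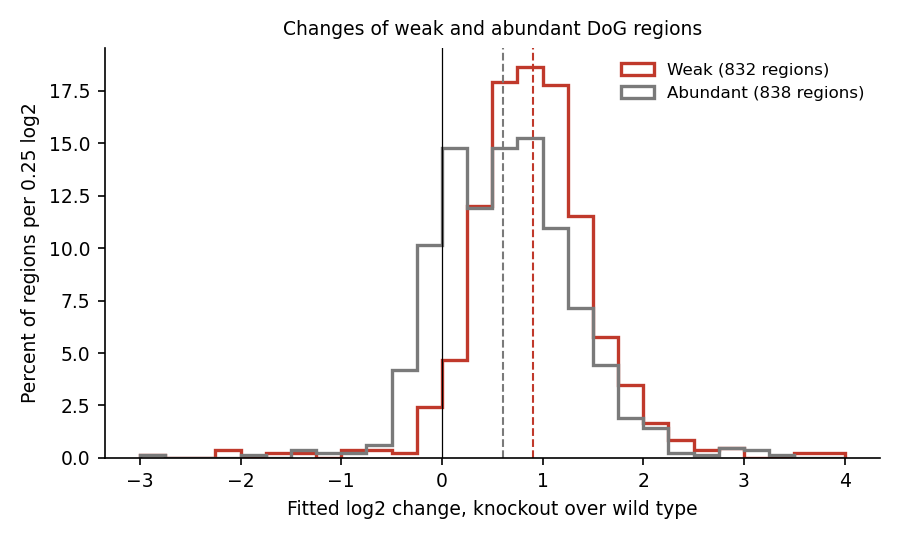
Percent of regions per 0.25 of fitted log2 change, for the 832 weak (red) and the 838 abundant (grey) DoG regions, with dashed lines at their medians of 0.90 and 0.61. Values under −3, such as −5.66 for region 1605, are drawn in the leftmost bin; the weak regions have the smaller share at and below 0.

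Against the abundant regions, the weak ones had the larger rise and, by quartiles, the less dispersed one. The summed level of the abundant regions went from 23636 ± 663 to 27750.4 ± 844 CPM (SD, n = 3), a ratio of 1.17 beside the 1.82 of the weak ones. The weak regions therefore took a larger share of all DoG counts, at 5.58%, 6.14% and 5.61% in WT and 8.83%, 8.48% and 8.74% in the knockout. The groups did not overlap, and the share differed by 2.91 percentage points (two-sided exact permutation p = 0.1, the smallest possible). The sum of the abundant regions is weighted to a few rows of very high counts, and without the row with the most counts the difference was 3.01 points. By medians, which do not carry that weight, the difference was smaller. The log2 ratio of the weak to the abundant median level was −2.16, −2.11 and −2.10 in WT and −2.00, −2.03 and −1.98 in the knockout, a shift of 0.12 that also reached p = 0.1 in the exact permutation test.

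The abundant regions also included more falls, 66 of 838 (7.88%) beside 14 of 832, and their quartiles of 0.13 and 1.04 lay further apart. The SD of the log2 change differed little, at 0.69 in the abundant and 0.66 in the weak regions. After the mean squared SE was subtracted it was 0.68 and 0.62. Of the abundant, 595 (71.0%) rose. The intervals of 1.96 SE held the set's own median in 235 of 838 abundant regions (28.0%), whose median SE of 0.12 was smaller. The total includes the knockout counts, so that among regions of equal WT level those with a larger rise have the larger total. With regions chosen on the WT counts alone instead, by a sum of 30 to 353, the median log2 change of the 1004 regions was 0.94. The upper limit on WT counts itself leans towards regions with few WT counts, and thus towards a rise. This value therefore cannot show that the choice by total had no effect.

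Within the weak set the median change was smaller at larger totals, the error was smaller too, and the share called was larger. The 14 members with totals of 60 to 99 had a median log2 change of 1.20 and a median SE of 0.42, and 8 of them rose. For the 76 members from 100 to 199 the median was 1.04, the median SE 0.32 and the number that rose 59 (77.6%). From 200 to 399 counts the median of 345 members was 0.94, the median SE 0.24, and 276 rose (80.0%). From 400 to 707 counts the median of 397 members was 0.84, the median SE 0.18, and 332 rose (83.6%). Over all fitted DoG rows 75.7% rose. Among the abundant regions, with larger totals still, 71.0% did, so the share called did not keep growing beyond the weak set. The smallest called rise shrank with depth, from 2.16-fold below 100 counts to 1.59-fold, 1.37-fold and 1.30-fold in the next 3 ranges. At totals under 100 the median 1.87-fold rise was thus smaller than any rise that was called. Across members, the rank correlation of the change with the total was −0.12, given as a description since all members share the same 6 libraries and the total holds the counts behind the change.

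**Figure D4:**
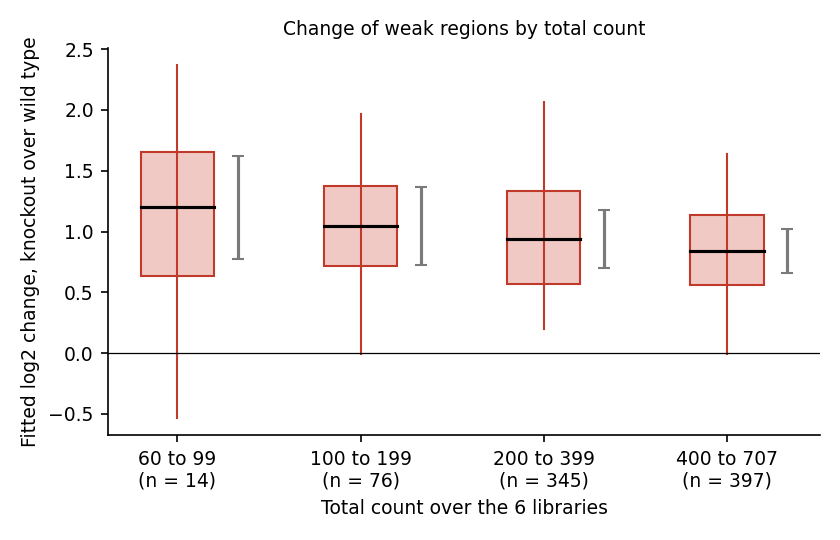
Fitted log2 change of the weak regions in 4 ranges of total count over the 6 libraries, with boxes for the quartiles, a black line for the median, thin lines from the 5th to the 95th percentile and a grey bar of 1 median SE of a single region to each side. The medians run from 1.20 to 0.84, and the error bar narrows from 0.42 to 0.18.

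The member nearest the overall median of 0.90 in each range of totals shows what these changes look like in reads. Region 1432 had 50, 53 and 73 counts in WT and 122, 117 and 92 in the knockout (log2 change 0.90, SE 0.19, edgeR adjusted p = 2.3e-05). Region 1521 had 24, 47 and 31 counts in WT and 74, 66 and 50 in the knockout (0.90, SE 0.24, edgeR adjusted p = 8.6e-04). In region 18, 15, 26 and 11 counts in WT stood against 30, 34 and 32 (0.88, SE 0.32, edgeR adjusted p = 0.011). In none of these did the groups overlap on the CPM scale. The call for region 18 was lost without WT replicate 3 (edgeR adjusted p = 0.078) and with the totals of the DoG table (log2 change 0.61, edgeR adjusted p = 0.072). Region 761, with 10, 12 and 8 counts in WT and 14, 18 and 17 in the knockout, was not called (0.69, SE 0.39, edgeR adjusted p = 0.10), although its groups did not overlap either.

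The 6 largest rises among called members are given by size only, since 4 of them are chosen again below for their low WT counts. They went from a few counts to between 64 and 144 per library. Region 1358 had 7, 6 and 4 counts in WT and 73, 99 and 76 in the knockout, which is 0.216 ± 0.074 against 3.08 ± 0.49 CPM (SD, n = 3). Its fitted rise was 14.2-fold (log2 3.83, SE 0.33). Region 1611 had 8, 12 and 9 counts in WT and 144, 114 and 139 in the knockout, a 13.5-fold rise (SE 0.24 on the log2 scale). These 2 regions went from near the bottom of the weak range in WT to about its middle or above in the knockout, where the median member had 3.12 CPM.

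Region 1152 rose 12.4-fold (SE 0.28), from 4, 13 and 8 counts to 97, 121 and 98. Region 765 rose 12.0-fold (SE 0.34), from 4, 8 and 6 counts to 87, 64 and 69. Region 772 had 16, 8 and 11 counts in WT and 81, 106 and 98 in the knockout, a rise of 7.97-fold (SE 0.27). Region 1544 had 17, 14 and 12 in WT and 91, 108 and 127 in the knockout, 7.44-fold (SE 0.24). After the first 4 there was a gap in the order, from 12.0-fold to 7.97-fold. In all 6 of these regions the lowest knockout count was several times the highest WT count.

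Near absence in WT, taken as a WT sum under 30 counts over the 3 libraries, was rare. It was met by 23 of the 832 members (2.76%). Because the total had to reach 60, such a member must hold more counts in the knockout than in WT, so its direction follows from the choice and is no finding, and the 23 are described with no test. The mirror case, a knockout sum under 30, was met by 2 members, regions 1600 and 1605. A limit of 15 counts left 2 members near absent in WT and a limit of 45 counts 50, so their number depends on where the line is drawn. Scaling the WT counts to equal library sizes before summing left the number at 23.

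Together the 23 had 174, 191 and 159 counts in the WT libraries and 898, 881 and 844 in the knockout libraries, or 7.32, 6.50 and 5.92 CPM against 35.5, 32.4 and 30.1 CPM. Single counts in WT ran from 0 to 16, with a median of 7 in each library. None of the 23 was without reads in WT, and 1 of them, region 1075, was at 0 in 1 WT library. Near absent therefore means about 0.153 to 0.373 CPM in WT, where a single count is worth 0.034 to 0.042 CPM.

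In the knockout the 23 fell into a few strong and many weak regions. Their summed knockout counts ran from 37 to 397 with a median of 82. At least 200 counts were reached by 4 members, the regions 1358, 1611, 1152 and 765 described above. The mean knockout level was above the median WT level of all weak regions (1.65 CPM) in 6 of the 23 and above their median knockout level in 2. Most of the 23 lay at the lower end of the total: 11 of the 14 members with totals under 100 were among them, 8 of the 76 from 100 to 199, and 4 of the 742 with 200 counts or more. The median log2 change was 1.85 in the 23 and 0.88 in the other 809 members, so the median of the whole set does not rest on them.

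The smallest WT sums show how few reads these values rest on. Region 111 had 5, 4 and 3 counts in WT and 18, 17 and 28 in the knockout, a ratio of summed levels of 5.22 with an exact 95% counting interval of 2.79 to 10.6. Region 1075 had 7, 6 and 0 counts in WT and 20, 16 and 12 in the knockout (ratio 3.67, interval 1.96 to 7.38). It was also the member with the smallest total, at 61. Region 1446 went from 5, 6 and 4 to 23, 29 and 30 counts (ratio 5.43, interval 3.11 to 10.1). Region 1395 went from 10, 4 and 4 to 17, 20 and 21 counts (ratio 3.20, interval 1.86 to 5.77). Such intervals cover counting error only. They leave out that these regions were chosen for low WT counts, which by itself raises the ratio, and are no test of a rise. By this ratio region 1358, with the fourth smallest WT sum, stood at 14.5 (interval 8.87 to 25.3).

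At the line itself, region 447 and region 1611 both had 29 counts in WT. Region 447 had 13, 7 and 9 in WT and 15, 13 and 10 in the knockout, so its groups overlapped, whereas region 1611 had 397 counts in the knockout. Just outside stood region 761, with 30 WT and 49 knockout counts, and region 1403, with 32 and 50. At the bounds of the total, region 1192 with 27 knockout and 23 WT counts was the first row below 60. Region 973, with 501 knockout and 206 WT counts, was the last below the upper bound, and region 200, with 487 and 221, the first beyond it.

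**Figure D5:**
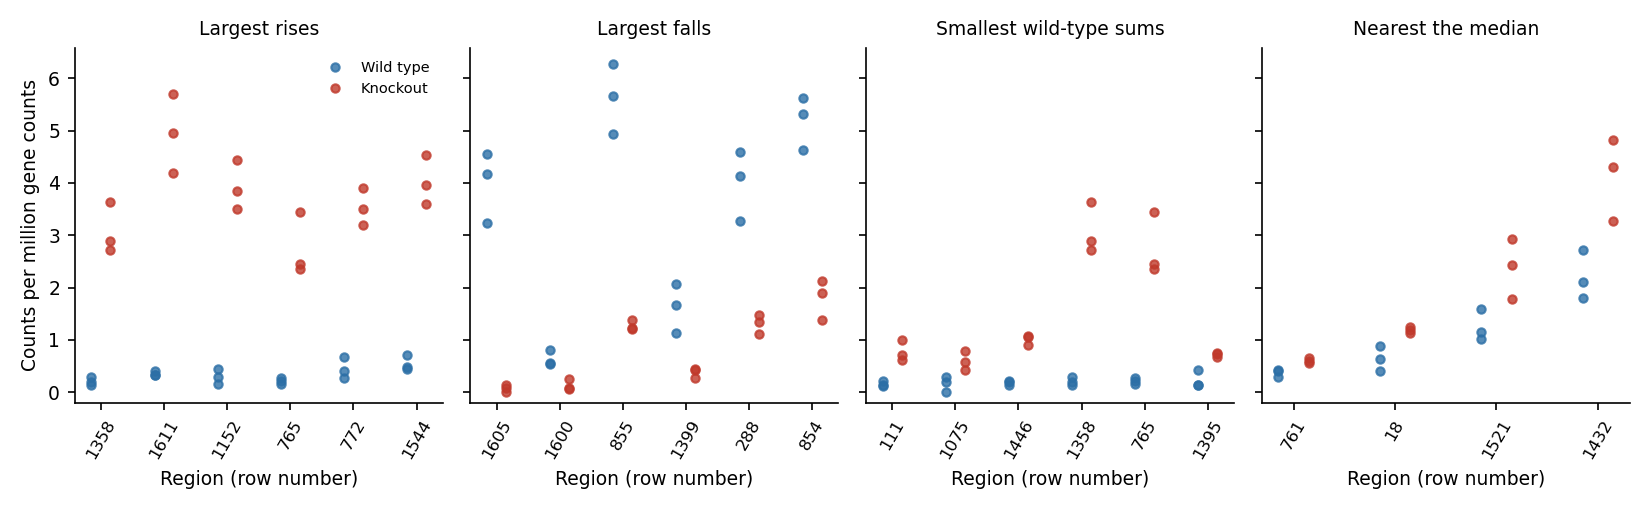
Level in each of the 6 libraries (CPM) for the regions with the largest rises, the largest falls and the smallest WT sums, and for the regions nearest the median change, with WT in blue and knockout in red. Region 1605 goes from 3.24 to 4.56 in WT to at most 0.147 in the knockout, and region 1358 from at most 0.295 to at least 2.71.

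The 14 falls were few but some were deep. Region 1605 had 77, 134 and 112 counts in WT and 2, 4 and 0 in the knockout, or 3.99 ± 0.68 against 0.075 ± 0.074 CPM (SD, n = 3). Its log2 change was −5.66 (SE 0.38, edgeR adjusted p = 3.7e-19), and the ratio of the summed levels was 0.018 with an exact 95% counting interval of 0.0067 to 0.041. No other member fell by more than 2.21 on the log2 scale. In WT this region lay well above the median member, and in the knockout it was the lowest of all 832.

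Region 1600 had 13, 24 and 15 counts in WT and 2, 7 and 2 in the knockout (log2 change −2.21, SE 0.50). Region 855 had 149, 145 and 152 in WT and 31, 33 and 39 in the knockout (−2.13, SE 0.19), and the row before it, region 854, had 110, 165 and 143 against 35, 58 and 53 (−1.52, SE 0.18). Region 1399 had 27, 61 and 45 in WT against 7, 12 and 12 (−2.09, SE 0.34), and region 288 had 78, 135 and 111 against 34, 40 and 31 (−1.62, SE 0.20). In each of these the highest knockout level was below the lowest WT level. The other 8 falls had log2 changes from −1.37 to −0.50. A log2 change of −1 or lower was fitted in 8 members (0.96%), about the same share as the 0.891% of all fitted DoG rows. Among the 14 called falls of weak regions, 854 and 855 were the only pair in adjacent rows of the table.

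Genes of 3′-end cleavage and termination did not move together. Of 25 listed factors, all of them tested, 10 rose and 6 fell, where 29.3% of all fitted genes rose and 27.4% fell (median log2 change 0.03, beside 0.03 over all genes). Xrn2, the exonuclease of termination, fell from 307 ± 16.7 to 207 ± 4.7 CPM (SD, n = 3; log2 change −0.57, SE 0.03, edgeR adjusted p = 1.4e-24). Cpsf3, which encodes CPSF73, rose from 56.7 ± 1.8 to 70.9 ± 2.6 CPM (0.32, SE 0.04, edgeR adjusted p = 1.3e-09). Pcf11, a termination factor that binds the polymerase tail, rose by a log2 change of 0.41 (SE 0.04), and Fip1l1, a subunit of the polyadenylation complex, by 0.39 (SE 0.03). Cstf1, a subunit of the cleavage stimulation factor, changed by −0.55 (SE 0.05). Without names for the DoG regions, these genes could not be set against single regions.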

How the data were processed

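The deposited files hold raw read counts per DoG region and per gene for the same 6 libraries. The submitters' processing notes name STAR 2.6.1d, featureCounts 1.6.3 and the builds mm10 and GRCm38 without saying which file each made. Libraries were stranded and depleted of ribosomal RNA, per the labels' protocols. The sources used here do not say how, or in which libraries, DoG regions were defined, nor the strand setting.

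Counts were scaled by the gene-table total of each library. DoG rows (1684 with at least 15 counts in total) and genes were fitted with edgeR 4.0.16 in R 4.3.3 (quasi-likelihood F test, robust), two-sided, adjusted by Benjamini-Hochberg over all rows. The SE was taken from the log2 change and F. Fold changes are knockout over WT. The fit was tested on simulated data drawn with the dispersions fitted here, which checks the code and not the model. Library-level values were compared by exact permutation, and tables and plots used Python 3.11.15, SciPy 1.17.1 and matplotlib 3.10.9. Within-genotype pairs had a chi-square per region of 1.52 to 1.69, above sampling noise, and all 6 were kept as separate libraries.

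The members and lists were chosen with earlier results of these data known. Named were the 6 largest rises and 6 largest falls among called members with non-overlapping groups, the member nearest the overall median in each range of totals, the 6 smallest WT sums, and regions at the bounds. Genes named were Ube3d, Cpsf3, Xrn2 and the listed 3′-end factors with the 4 smallest adjusted p. Region 265 was chosen after its values were seen. Alternatives were TMM and RLE factors, totals without Rn45s or of the DoG table, other filters, DESeq2 1.42.0, limma-voom (limma 3.58.1), a replicate block and each library left out.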

Additional observations from a re-analysis of the deposited data

How the results depend on the processing

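The calls of weak regions held under most settings. The number called higher was 675 with TMM or RLE factors, other filters or none, 692 without Rn45s, 633 with DESeq2 and 678 with limma-voom. Over all fitted DoG rows it was 1274 with TMM or RLE factors and 1270 to 1276 with other filters or none. It was 1309 without Rn45s, 1210 with DESeq2 and 1278 with limma-voom. Relative to the DoG table's own totals, which removes the part of the rise that all regions share by count, 537 were higher and 23 lower. Of all fitted DoG rows 1010 were higher there, and the members' median log2 change was 0.63. Leaving out 1 library at a time gave 627 to 692 called higher (1190 to 1311 over all fitted DoG rows) and 13 to 15 lower. It gave a median log2 change of 0.85 to 0.98 and a spread of 0.61 to 0.64. It gave a summed ratio of 1.76 to 1.91 and a difference in share of 2.81 to 3.09 points. Every knockout library lay above every WT library in 691 to 734 members. Leaving out a library can only keep or raise that number from the 682 of the full set, so it is no check. The lowest and the highest median were those without WT replicate 1 and WT replicate 2. With the replicate number as a block, 664 were higher (1248 over all fitted DoG rows) and 14 lower (median 0.90), and the summed ratio was 1.82. Same-numbered libraries did not deviate together (correlations of −0.043 to −0.015), so no pairing by number was seen. Counting error makes up most of the spread between replicates at these counts, so these correlations cannot exclude a pairing. The spread was 0.58 without region 1605, and 2 or 50 members were near absent at limits of 15 or 45. The choice by WT counts, the share without the largest row and the spread without region 1605 were added after the data were seen. At totals under 100, no rise smaller than 2.16-fold was called.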

Other observations

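Along the row order of the table, whose meaning the sources used here do not state, the weak regions were spread evenly and rose in every part. In 10 consecutive blocks of rows there were 70 to 95 members, with a median log2 change between 0.77 and 1.20. The highest median was in rows 849 to 1017, which held 70 members. The lowest was in rows 341 to 510, which held 92. The quartiles of these 2 blocks overlapped, at 0.68 to 1.53 and 0.54 to 1.19. In 418 pairs of members in adjacent rows, the changes of the 2 members had a Pearson correlation of 0.15, given as a description since all share the same 6 libraries.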
